A study of Mus musculus with 44 samples.

Results

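En1, Zic1, Zic4, Six4, Tbx1 and Sim2 are 6 of the 55486 genes in the count table of a mouse study of mammary fibroblasts, taken by gene name. They are transcription factors followed as a set named for the En1 lineage and the dermomyotome, the outer layer of the somite. The name does not describe every member, as Tbx1 and Sim2 were lower in GFP+ than in GFP- normal fibroblasts. The 6 genes are followed here through 4 sorted fibroblast populations, library by library and mouse by mouse. En1, Zic1, Six4, Tbx1 and Sim2 (5 of the 6) passed the filter on low counts that kept 15584 genes, and Zic4 did not. The genes were selected on values of these same libraries, among them their differences between GFP+ and GFP- cells. Values between GFP classes are therefore a description and carry no test.

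En1 encodes a homeodomain factor that marks the ventral ectoderm of the limb and the central dermomyotome, which gives rise to dermal fibroblasts of the back and to muscle. Zic1 and Zic4 are zinc finger factors of the neural tube and the dorsal somite, and Six4 is a homeodomain factor that acts with Eya cofactors in muscle precursors. Tbx1 is a T-box factor of the pharyngeal region and of head muscle, and Sim2 is a basic helix-loop-helix factor of the PAS family known from midline and muscle precursor cells.

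The mice carried En1-Cre, in which Cre is made from the En1 locus, and the mTmG reporter, which switches from Tomato to GFP in a cell that has had Cre and in all its descendants. GFP therefore marks a cell with an ancestor that used the En1 locus, and not a cell that expresses En1 at the time of the sort. All recipients were female En1-Cre;mTmG mice that had donor mammary tissue placed at the fourth gland, whose own fat pad was not cleared and so kept its resident cells. Donor tissue was control tissue, giving normal fibroblasts (NFs), WB1P tissue, in which WapCre removes Brca1 and Trp53, or WB1P-Myc tissue, which also overexpresses Myc. Tumors of the last 2 kinds gave cancer-associated fibroblasts (CAFs). Cells without EpCAM, CD49f, CD31 and CD45 were sorted into En1+ (GFP+, CD26-), double+ (GFP+, CD26+), CD26+ (GFP-, CD26+) and double- (GFP-, CD26-). There were 12 libraries of 3 control mice, 16 of 5 WB1P mice and 16 of 5 WB1P-Myc mice, 44 in all. Each control label holds a pair of mouse numbers and was counted as 1 mouse although the labels do not say whether such a pair is a pool of animals. The labels mark 2 WB1P-Myc mice 8x8, a tumor size that the study's methods use for an advanced stage.

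Some tumor mice lack libraries of 1 or more populations. In all, 3 NF libraries of each kind stand beside 8 CAF libraries of En1+, 9 of double-, 6 of CD26+ and 9 of double+ cells. Libraries held 5790599 to 15240328 reads on genes. Levels are given as raw counts or as CPM, counts divided by the library size, which was scaled by edgeR's TMM method, and 3 counts corresponded to between 0.183 and 0.547 CPM. Dpp4, which encodes CD26, lay at 0.629 to 15.6 CPM in the CD26- libraries and at 235 to 803 CPM in the CD26+ libraries, with no overlap. All 6 fibroblast markers examined had counts in every population. Tests are edgeR quasi-likelihood tests on all genes, with p-values adjusted over the 15584 genes, and a gene was called at an adjusted p under 0.05.

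En1 had the highest level of the 6 genes. Per kilobase of exon, the mean over all libraries was 6.81 CPM for En1, 0.541 for Six4, 0.176 for Zic1, 0.0981 for Sim2, 0.0683 for Tbx1 and 0.0118 for Zic4. En1 (ENSMUSG00000058665) lies on the plus strand of chr1:120602418-120607992 on GRCm38. In the NFs its levels were 3.95, 3.78 and 4.52 CPM in double- cells, 7.50, 8.71 and 7.49 CPM in CD26+ cells, 7.05, 13.9 and 8.67 CPM in En1+ cells, and 14.3, 17.6 and 17.0 CPM in double+ cells, for control replicates 1, 2 and 3. The double- cells were lowest and the double+ cells highest, and both stood clear of the next population, whereas the CD26+ and En1+ ranges overlapped. In the CAFs the double- cells again had the lowest and the double+ cells the highest mean. Their En1 ranges, with the median in the middle, were 5.91, 9.22 and 21.6 CPM in double- cells, 12.96, 14.9 and 46.9 CPM in CD26+ cells, 8.24, 15.998 and 51.4 CPM in En1+ cells, and 11.0, 27.0 and 85.3 CPM in double+ cells. Neighbouring populations overlapped throughout the CAFs. WB1P replicate 5 had the highest En1 level of all CAF libraries in each of the 4 populations. No library lacked En1, and the lowest raw count was 51, in a control double- library, so that the GFP- cells of each of the 12 mice with a GFP- library carried En1 RNA.

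**Figure D1:**
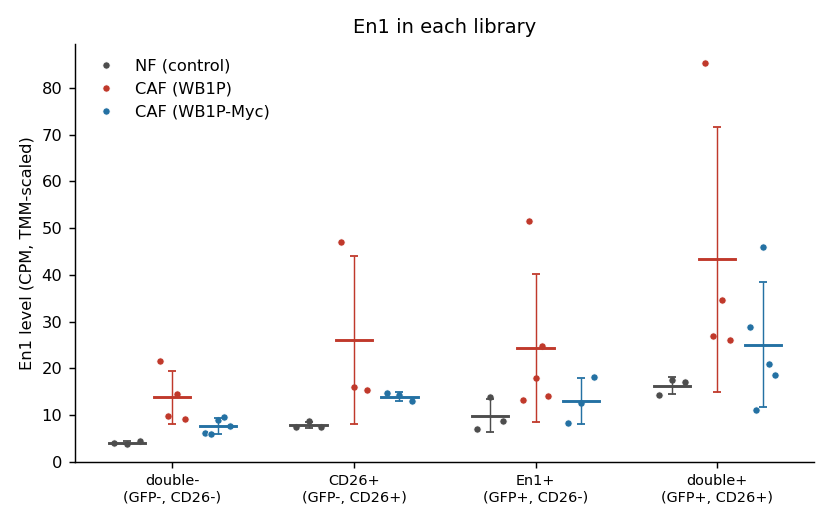
En1 level in CPM (y axis) in each of the 44 libraries, by sorted population (x axis) and donor tissue (color). Points are libraries, and bars are the mean with its SD over 3 to 5 mice. NF libraries run from 3.78 CPM in double- to 17.6 CPM in double+ cells, and the highest CAF point is the 85.3 CPM of WB1P replicate 5.

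The stretch before the En1 and Zic1 transcription starts is shown because En1 is the locus that carries Cre and Zic1 RNA was nearly restricted to GFP+ libraries. Promoter sequences were taken from RefSeq on GRCm38.p6, where 5 of the 6 genes matched, and are given 5′ to 3′ on the strand of the gene, cut before the first exon annotated. En1 covers chr1:120602237-120602417, plus strand, and Zic1 covers chr9:91365811-91366018, minus strand. Capitals mark each match to CANNTG, the E-box that basic helix-loop-helix factors can bind.
En1: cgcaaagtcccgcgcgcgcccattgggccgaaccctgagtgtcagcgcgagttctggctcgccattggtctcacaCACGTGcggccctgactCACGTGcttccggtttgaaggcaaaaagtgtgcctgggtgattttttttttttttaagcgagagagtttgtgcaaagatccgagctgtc
Zic1: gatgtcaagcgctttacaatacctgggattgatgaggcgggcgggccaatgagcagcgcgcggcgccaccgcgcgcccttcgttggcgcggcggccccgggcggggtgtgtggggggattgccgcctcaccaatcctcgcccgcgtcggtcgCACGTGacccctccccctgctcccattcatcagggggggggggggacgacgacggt

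En1 had 2 such matches in 181 bases and Zic1 had 1 in 208 bases, on a motif that reads the same on both strands. All 3 were CACGTG, which is one form of CANNTG. Among 32817 promoter windows of the same lengths, 3.72% held CACGTG in the first 181 bases and 4.59% in the first 208 bases, whereas CANNTG was in 55.7% and 60.3%. Neither TAATTA, a core recognized by homeodomains, nor TATAAA was found on either strand of these windows. TAATTA was in 3.87% and 4.35% of all windows and TATAAA in 8.40% and 9.47%. These matches describe the letters only.

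Within a mouse, the GFP+ and GFP- libraries of the same CD26 class formed 19 pairs from 11 mice. En1 was higher in the GFP+ library in 19 of 19 pairs. The ratio was 1.30 to 3.66, with a median of 1.83. Over all genes tested, 0.0257% (4 genes) were higher in the GFP+ library in every pair and 0.0193% (3 genes) were lower. Beside En1 these 4 were Gt(ROSA)26Sor, the non-coding transcript of the locus that holds the mTmG reporter, with a median difference of 1.04 in log2(CPM + 0.5), 2510039O18Rik with 0.11 and Kdm5b, a histone demethylase, with 0.11. The fits across all genes called 0% of genes between GFP classes in CD26- CAFs, 0.0193% in CD26+ CAFs and 0.00642% in each CD26 class of the NFs, figures that are given as background only. For En1 the median difference on this scale was 0.86, and it was 0.93 in the 6 NF pairs and 0.76 in the 13 CAF pairs.

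Zic1 (ENSMUSG00000032368, minus strand of chr9:91358058-91365810) was close to a present or absent signal between GFP classes. In the NFs its raw counts were 36, 67 and 80 in En1+ cells and 44, 63 and 80 in double+ cells, and 0 in all 6 GFP- libraries. The mean of 4.41 CPM in the GFP+ NFs was at least 21.0-fold higher than a floor of 3 counts per library in the GFP- NFs. In the CAFs, the 17 GFP+ libraries held 0 to 43 counts with a median of 10, and the 15 GFP- libraries held 3 counts in all, no more than 1 each. The ratio of the summed counts, each relative to the summed library sizes of its group, was 60.7, with an exact 95% counting interval of 20.5 to 297. Here and below, counting intervals hold counting error alone. They leave out the spread between mice and the pairing, and are no test of the difference. Zic1 was higher in the GFP+ library in 18 of 19 pairs and tied at 0 in the other, of WB1P-Myc replicate 10, whose En1+ and double+ libraries both had 0 counts of Zic1. The same 2 libraries held 128 and 158 counts of En1. In these bulk samples, fewer cells with Zic1 and less Zic1 RNA per cell cannot be told apart.

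Zic4 (ENSMUSG00000036972) runs from the opposite strand, chr9:91362413-91389348, and shares 3398 bases with Zic1, of which 60 are exonic in both genes. The libraries were made with a stranded kit, but the strand setting of the counting is not given in the sources used here, so that reads of one gene could have been counted for the other. Its counts were low. NF libraries had 3, 10 and 6 counts in En1+ cells, 1, 7 and 9 in double+ cells, 0, 2 and 0 in double- cells and 0 in the 3 CD26+ libraries. Zic4 was thus highest in the GFP+ classes, with 36 counts in 6 GFP+ NF libraries against 2 in 6 GFP- NF libraries, a ratio relative to library size of 18.5 with a counting interval of 4.75 to 158. In the CAFs there were 30 counts in 17 GFP+ libraries and 2 in 15 GFP- libraries, a ratio of 13.1 with an interval of 3.33 to 113. Zic4 was higher in the GFP+ library in 16 of 19 pairs, and the other 3 were tied. Of the 21 libraries with any Zic4 count, 18 also had Zic1 counts, and over all libraries there were 12.0 Zic4 counts per 100 of Zic1.

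**Figure D2:**
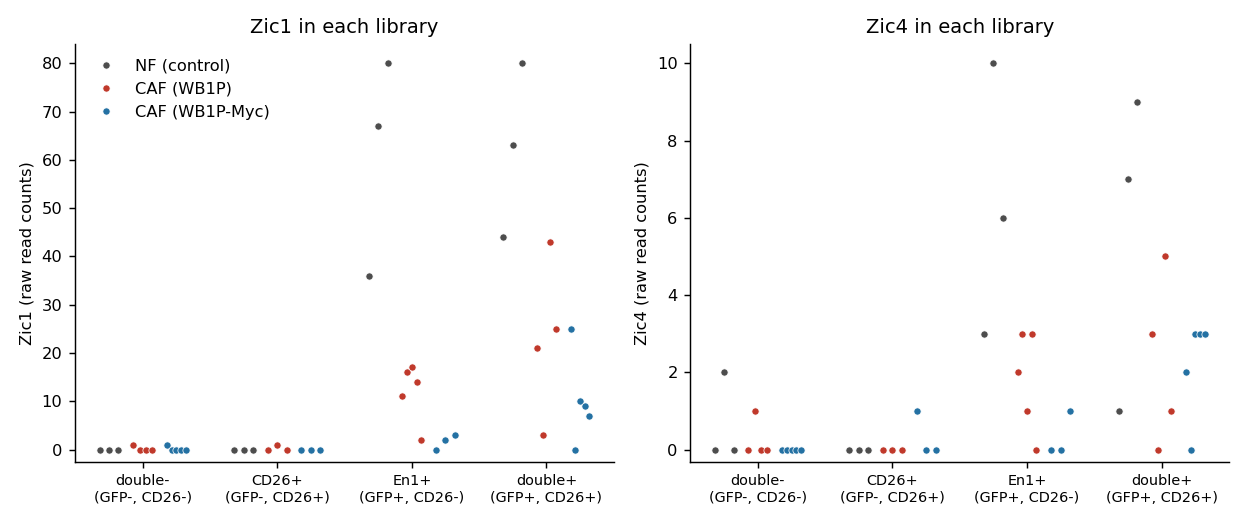
Raw read counts (y axes) of Zic1 (left) and Zic4 (right) in each library, by population (x axis) and donor tissue (color). Each point is 1 library. GFP- libraries hold at most 1 count of Zic1 and at most 2 of Zic4, whereas the GFP+ NFs hold 36 to 80 of Zic1 and 1 to 10 of Zic4.

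Tbx1 (ENSMUSG00000009097, minus strand of chr16:18580979-18590671) and Sim2 (ENSMUSG00000062713, plus strand of chr16:94084931-94127032) went the other way in the NFs. Tbx1 had 15, 26 and 30 counts in double- cells and 9, 8 and 18 in CD26+ cells, against 2, 4 and 7 in En1+ cells and 2, 0 and 3 in double+ cells. The GFP- library was higher in 6 of 6 NF pairs, which come from 3 mice, and the ranges of the 2 GFP classes did not overlap in CPM. No share of all genes stands beside these figures. Here, and for Sim2 and Six4 below, they describe genes picked on this contrast. Over the NFs the GFP+ libraries held 0.174 times the Tbx1 of the GFP- libraries (counting interval 0.0994 to 0.289). Sim2 had 27, 77 and 29 counts in double- cells, 14, 10 and 5 in CD26+ cells, 1, 3 and 0 in En1+ cells and 0, 4 and 2 in double+ cells. It too was higher in the GFP- library in 6 of 6 NF pairs, with a ratio of 0.0633 (0.0298 to 0.119). In the CAFs both genes were near the floor in both GFP classes. There Tbx1 was lower in the GFP+ library in 4 of 13 pairs, higher in 3 and tied in 6, and Sim2 was lower in 5, higher in 3 and tied in 5.

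Six4 (ENSMUSG00000034460, minus strand of chr12:73099609-73113456) was higher in the GFP+ library in 6 of 6 NF pairs, with a median ratio of 2.01, and in 10 of 13 CAF pairs, with a median ratio of 1.10. In the CAFs the levels ran from 3.46 to 13.4 CPM in GFP+ and from 2.87 to 10.1 CPM in GFP- libraries and overlapped almost fully. Over all genes tested, 1.5% were higher in the GFP+ library in 16 or more of the 19 pairs, the number that Six4 reached.

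**Figure D3:**
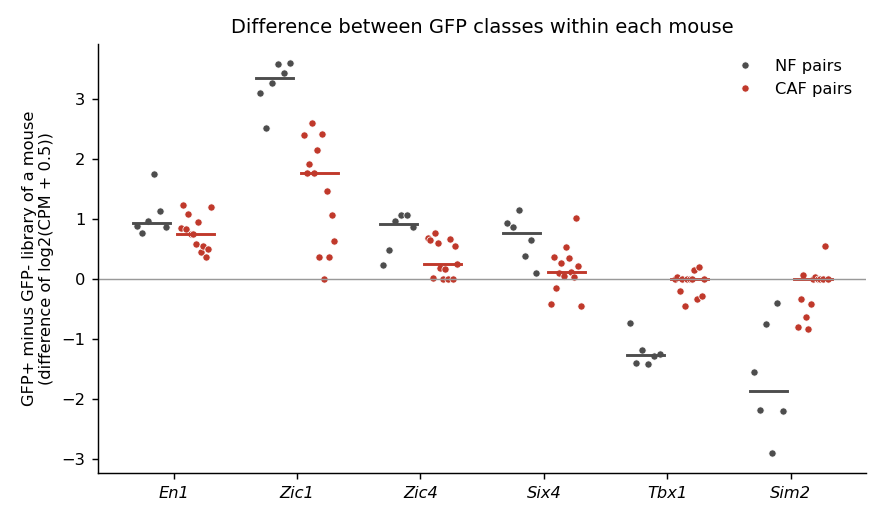
Difference in log2(CPM + 0.5) between paired GFP+ and GFP- libraries (same mouse, same CD26 state; y axis) for the 6 genes (x axis), with 6 NF pairs in grey and 13 CAF pairs in red. Lines are medians. En1 points all lie above 0, Zic1 points lie at or above 0, and Tbx1 and Sim2 lie below 0 in all 6 NF pairs and around 0 in the CAF pairs.

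The CD26 comparison asks whether these genes also differ between the CD26+ and CD26- cells of the same GFP class. By the fits, En1 was called in the CAFs and Zic1 among GFP+ CAFs, while Six4, Tbx1 and Sim2 were not called. For Zic1 the exact sign-flip test over the 7 mice with both libraries gave p = 0.156. The GFP+ libraries compared were also among the values that chose Zic1. In the GFP+ class of the CAFs, En1 was 85.3, 27.0, 34.7, 26.1, 11.0, 20.9 and 18.5 CPM in the double+ libraries of 7 mice (WB1P replicates 5 to 8 and WB1P-Myc replicates 10, 12 and 13). The En1+ libraries of the same mice had 51.4, 17.9, 24.7, 14.1, 8.24, 12.6 and 18.2 CPM. The double+ library was higher in every one of the 7, by 1.02-fold to 1.85-fold, although the 2 ranges overlapped between mice. The log2 difference was 0.89 ± 0.29 (SE, adjusted p = 0.0164 in edgeR) in the fit without pairing, which also holds libraries that have no partner. With the mouse as a block it was smaller, 0.64 ± 0.14 (adjusted p = 0.000398). The exact 2-sided sign-flip test over the 7 mice gave p = 0.0156, the smallest it allows (0.0468 after adjustment over 36 tests). In the fit without pairing, the CD26 difference was called for En1 and Zic1, 2 of the 6 members, and for 35.5% of all genes. Without WB1P-Myc replicate 11 the difference was 0.72 with an adjusted p of 0.0511, and in a fit of the compared groups alone it was 0.93 (0.0579).

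In the GFP- class of the CAFs, En1 was 46.9, 16.1, 15.2, 14.6, 14.2 and 12.96 CPM in CD26+ cells and 21.6, 14.4, 9.22, 6.12, 9.67 and 7.61 CPM in double- cells of 6 mice (WB1P replicates 5, 7 and 8, WB1P-Myc replicates 9, 12 and 13). All 6 were higher in CD26+ cells, by 1.11-fold to 2.39-fold. With the mouse as a block the log2 difference was 0.76 ± 0.15 (adjusted p = 0.00013). Without pairing it was 0.89 ± 0.31 (adjusted p = 0.0242), with calls for 1 of the 6 members and 32.8% of all genes. The exact test gave p = 0.03125, again the smallest possible, or 0.075 after adjustment. In the fit without pairing, leaving out WB1P replicate 6 gave 0.83 (adjusted p = 0.0508), WB1P-Myc replicate 9 0.84 (0.0822), and the 2 mice marked 8x8 1.02 (0.0888).

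The NFs had En1 differences of the same direction in all 6 pairs, by 1.27-fold to 2.30-fold. With NFs and CAFs together, En1 was thus higher in the CD26+ library in 10 of 10 GFP+ and 9 of 9 GFP- pairs, as were 7.35% and 9.72% of all genes in every pair. The log2 differences of 0.73 ± 0.48 in GFP+ and 0.95 ± 0.50 in GFP- NFs were not called (adjusted p = 0.587 and 0.388), where 4.35% and 4.58% of all genes were. With the mouse as a block, which uses the pairing, they were 0.75 ± 0.22 (adjusted p = 0.0188) and 0.95 ± 0.25 (adjusted p = 0.00691). The blocked values in CAFs were 0.64 ± 0.14 and 0.76 ± 0.15 and were called too. The CD26 difference of En1 in CAFs minus that in NFs was 0.17 ± 0.56 in GFP+ and -0.05 ± 0.58 in GFP- cells (SE, adjusted p = 0.943 and 0.997). Pericyte markers moved with the CD26 class of the CAFs, with all 3 markers detected. Their summed level was 714 to 2889 CPM in En1+, 1275 to 4906 CPM in double-, 55.6 to 128 CPM in CD26+ and 51.9 to 127 CPM in double+ CAFs, and their part in the En1 result was not tested. In the NFs the same sums lay between 30.0 and 65.4 CPM in all 4 populations.

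Zic1 had 21, 3, 43, 25, 0, 9 and 7 counts in double+ and 16, 17, 14, 2, 0, 2 and 3 counts in En1+ libraries of the 7 CAF mice, in the order given for En1. It was higher in the double+ library in 5 mice, lower in WB1P replicate 6 and tied at 0 in WB1P-Myc replicate 10. The fitted log2 difference was 1.77 ± 0.57 (adjusted p = 0.0144), and the exact test over the 7 mice gave p = 0.156. No GFP- library held over 1 count of Zic1, so it passed the filter on low counts through GFP+ libraries alone. Those libraries were also among the values that chose it, which limits this call. The exact test leaves out the double+ libraries of WB1P-Myc replicates 9 and 11 and the En1+ library of WB1P replicate 4, which have no partner. Without WB1P-Myc replicate 9 the fitted difference was 1.44 with an adjusted p of 0.0551. Without the 2 mice marked 8x8 the fitted difference was 3.78. The WB1P-Myc En1+ group was then replicate 10 alone, with 0 counts of Zic1, so the larger value rests on that library. In the NFs, the same comparison gave -0.04 ± 0.73 (adjusted p = 1). The difference between CAFs and NFs was 1.81 ± 0.92 (adjusted p = 0.374).

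Sim2 took opposite CD26 directions in GFP- NFs and CAFs. Its levels were lower in CD26+ than in double- cells in 3 of 3 control mice, and higher in CD26+ cells in 4 of 6 tumor mice and tied at 0 in the other 2. The difference of the 2 CD26 differences was 3.39 ± 1.35 (SE), and with the mouse as a block 3.48 ± 0.78. In the NFs alone, the CD26 difference was -2.09 ± 0.99 without and -2.01 ± 0.44 with the block. The high Sim2 levels of GFP- NFs were among the values that chose the gene. These Sim2 values are therefore a description with no test. The CAF libraries of this comparison hold at most 8 counts of Sim2. No member was called in these differences of differences in the fit without the block, as against 2.55% (GFP+) and 1.83% (GFP-) of all genes.

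The comparison of CAFs with NFs asks what differed between tumor and control tissue within a population. Its NF libraries are those whose GFP classes were known when the genes were chosen. The high levels of Zic1 and Zic4 in GFP+ NFs and of Tbx1 and Sim2 in GFP- NFs were among those values, so that lower levels of these 4 genes in CAFs are not independent of the choice and are given as a description, with no test. The lower levels of Six4 and En1 in GFP- than in GFP+ NFs were among them too. Rises of Six4 and En1 in double- and CD26+ cells are thus not independent of the choice, and their p-values there carry this limit. Six4 was called in all 4 populations and En1 in double-, CD26+ and double+ cells. Of all genes, 39.4% were called in En1+, 43.2% in double-, 33.2% in CD26+ and 43.3% in double+ cells, so that calls of single members are common events here. The summed level of the 3 pericyte markers moved with CAFs against NFs too, with 33.6 to 65.4 CPM in En1+ and double- NFs and 714 to 4906 CPM in the CAFs of these populations. It was 30.0 to 41.2 CPM in CD26+ and double+ NFs and 51.9 to 128 CPM in the CAFs there. Other sums moved too. Immune markers (5) were 19.9 to 32.2 CPM in CD26+ NFs and 33.9 to 154 CPM in the CAFs there, with overlap in the other populations. Endothelial markers (3) were 29.2 to 40.6 CPM in double- NFs and 1.99 to 19.5 CPM in the CAFs there, again with overlap elsewhere. Epithelial sums overlapped in all 4 populations. The part of any of these sums in the results for Six4, En1 and the related genes was not tested.

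Six4 rose in the CAFs of all 4 populations. In En1+ cells it was 1.98, 1.80 and 2.29 CPM in the NFs and 5.19 to 13.4 CPM (median 8.24) in the 8 CAF libraries, and the groups did not overlap. In double- cells it was 0.851, 1.26 and 2.11 CPM in NFs and 2.87 to 9.70 CPM (median 6.87) in CAFs, and in CD26+ cells 0.764, 2.00 and 2.15 CPM against 4.62 to 10.1 CPM (median 6.49), again without overlap. Non-overlapping groups were found for 26.2%, 26.7% and 28.9% of all genes in En1+, double- and CD26+ cells. The log2 differences were 1.98 ± 0.34 in En1+, 2.26 ± 0.35 in double- and 2.04 ± 0.35 in CD26+ cells, with adjusted p-values of 2.5e-05, 3.9e-06 and 5e-05, and exact permutation tests gave p = 0.00606, 0.00455 and 0.0119, each the smallest possible. The p-values of double- and CD26+ cells are not independent of the choice of Six4. In double+ cells the NF levels of 1.90, 5.03 and 3.67 CPM overlapped the CAF range of 3.46 to 10.8 CPM, and the difference was 0.93 ± 0.31 (adjusted p = 0.016). Leaving out control replicate 1 gave 0.62 (adjusted p = 0.118), control replicate 3 0.94 (0.0546) and WB1P replicate 7 0.74 (0.0588).

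En1 was higher in CAFs than in NFs without overlap in double- cells, where CAF libraries began at 5.91 CPM and NF libraries ended at 4.52 CPM, and in CD26+ cells, at 12.96 against 8.71 CPM. The log2 differences were 1.32 ± 0.44 (adjusted p = 0.0146) and 1.27 ± 0.44 (0.0262). As for Six4, these p-values are not independent of the choice of the gene. In double+ cells the difference of 1.02 ± 0.41 (adjusted p = 0.0447) came with overlapping groups, 11.0 to 85.3 CPM against 14.3 to 17.6 CPM, and the exact permutation test gave p = 0.127. The double+ difference was not called with DESeq2's size factors (adjusted p = 0.0540), without the filter on low counts (0.0648) or in a fit of the compared groups alone (0.0898). In En1+ cells the difference of 0.85 ± 0.42 was not called (adjusted p = 0.107). Leaving out any 1 control replicate ended the En1 calls, with adjusted p-values of 0.0581 to 0.0778 in double-, 0.0723 to 0.113 in CD26+ and 0.110 to 0.160 in double+ cells. So did leaving out WB1P-Myc replicate 9 (0.0511) or the 2 mice marked 8x8 (0.0871) in CD26+ cells, and in double+ cells the latter (0.0632), WB1P replicate 7 (0.0612) or WB1P-Myc replicates 9, 11, 12 or 13 in turn (0.0503 to 0.0859). Without WB1P replicate 5, whose En1 was highest, the differences were 1.16, 0.89 and 0.70 and were called in the 3 populations.

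Zic1 levels were lower in the CAF libraries of both GFP+ populations. In En1+ cells, 2.37, 5.49 and 5.55 CPM in NFs compared with 0 to 1.499 CPM (median 0.571) in CAFs, and in double+ cells 3.80, 4.34 and 4.89 CPM compared with 0 to 3.01 CPM (median 0.884). Neither comparison had overlapping groups, as for 26.2% and 23.7% of all genes. The fitted log2 differences were -3.57 ± 0.65 and -1.76 ± 0.57 (SE). Without the 2 mice marked 8x8 the first was -5.51, where the WB1P-Myc En1+ group was replicate 10 alone, with 0 counts of Zic1. Zic4 had 19 counts in 3 En1+ NF libraries and 10 in 8 En1+ CAF libraries, 0.217 times the NF level relative to library size (counting interval 0.0903 to 0.491). In double+ cells the ratio was 0.470 (0.234 to 0.955).

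Tbx1 in double- cells was 1.16, 1.73 and 1.86 CPM in NFs and 0 to 0.782 CPM (median 0.0746) in CAFs, without overlap and with a level 10.8-fold lower by summed counts relative to library size (counting interval 6.31 to 19.6). Without WB1P-Myc replicate 11, whose 11 counts were the most of any CAF library, the fitted log2 difference went from -3.55 to -4.58. In CD26+ cells, 9, 8 and 18 counts in NFs compared with 4 counts in all 6 CAF libraries together, a level 13.9-fold lower (4.97 to 53.9), with the 3 WB1P libraries at 0. In En1+ cells, 13 counts in 3 NF libraries compared with 4 in 8 CAF libraries (7.87-fold lower, 2.43 to 33.1). In double+ cells, all libraries of both groups had 3 counts or fewer, and no ratio is given.

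Sim2 in double- cells was 2.09, 5.11 and 1.80 CPM in NFs and 0 to 0.597 CPM (median 0) in CAFs, without overlap. Its level was 18.2-fold lower by summed counts relative to library size (counting interval 11.2 to 31.1), and the fitted log2 difference was -4.65 ± 0.83 (SE), -4.04 without control replicate 2 and -5.70 without WB1P-Myc replicate 9. In CD26+ cells the NF levels of 0.972, 0.799 and 0.326 CPM overlapped the CAF range of 0 to 0.731 CPM, and the fitted difference was -1.25 ± 0.94.

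**Figure D4:**
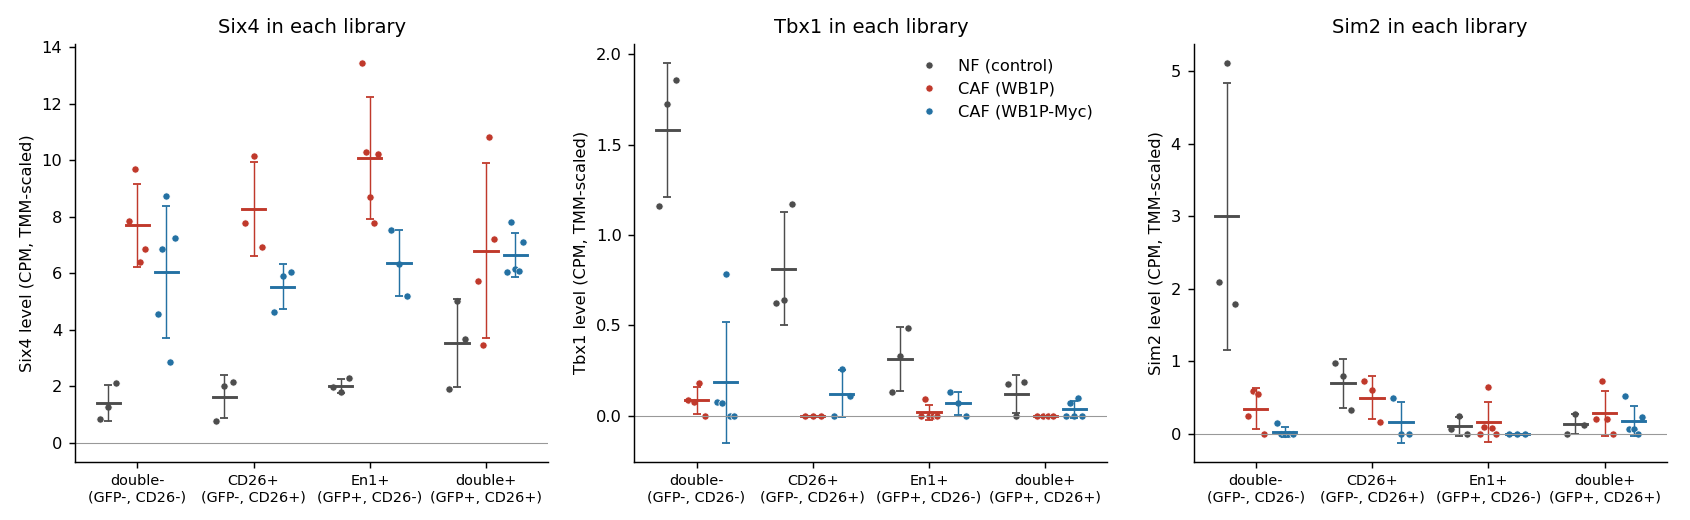
Levels in CPM (y axes) of Six4, Tbx1 and Sim2 in each library, by population (x axis) and donor tissue (color). Points are libraries, and bars are the mean with its SD. Six4 lies at 0.764 to 5.03 CPM in NFs and 2.87 to 13.4 CPM in CAFs, and Tbx1 and Sim2 are highest in the double- NFs.

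Skeletal muscle genes were higher in the double- NFs, where Tbx1 and Sim2 were highest. The summed level of 10 muscle genes was 93.5, 542 and 94.7 CPM in the double- libraries of control replicates 1, 2 and 3, and 17.3 to 85.0 CPM in the 9 other NF libraries. Control replicate 2 had both the highest muscle sum and the highest Sim2 level, but not the highest Tbx1 level. Acta1, skeletal muscle actin, had 4667 counts and Ckm, muscle creatine kinase, 1609 counts in the 3 double- libraries, whereas the muscle determination factors Myod1, Myog, Myf5 and Myf6 had 4, 3, 1 and 4. Of these counts 1 library, that of control replicate 2, held 3849 of Acta1 and 1352 of Ckm. All 10 muscle genes had counts in the double- NFs, and 6 or 7 did in the other NF populations. In the CAFs the sum ranged from 1.89 to 134 CPM, with medians of 5.65 to 6.53 CPM in the 4 populations. The sum of 5 epithelial markers was 25.7 to 55.9 CPM in the double- NFs and 6.78 to 27.9 CPM in the other NF libraries, ranges that met at their ends. The sum of 3 Schwann cell markers was 4.72, 5.44 and 8.61 CPM in the double- NFs and 1.32 to 4.95 CPM in the other NF libraries, again with an overlap. The part of muscle, epithelial or Schwann cell RNA in the Tbx1 and Sim2 results was not tested.

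**Figure D5:**
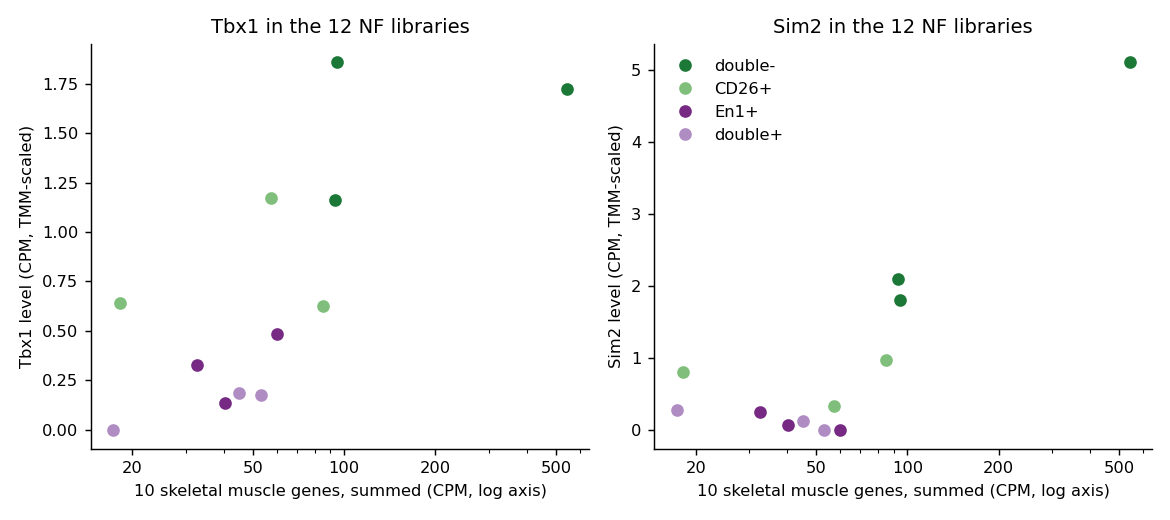
Level in CPM (y axes) of Tbx1 (left) and Sim2 (right) against the summed CPM of 10 skeletal muscle genes (x axis, log scale) in the 12 NF libraries, colored by population. Points are libraries. The 3 double- libraries have the highest muscle sums, 93.5 to 542 CPM, and Sim2 levels from 1.80 to 5.11 CPM.

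The genes whose log2 CPM followed each member most closely over the 44 libraries were listed, 3 for each. For En1 they were Manba (r = 0.803), Adora2b (0.797) and the fibroblast growth factor receptor Fgfr1 (0.786). For Zic1 they were Gt(ROSA)26Sor (0.6004), En1 (0.474) and Gm36738 (0.455), and for Six4 Slc39a11 (0.869), Adamts6 (0.868) and Azin2 (0.863). Tbx1 was followed by Cyyr1 (0.832), Drp2 (0.783) and Gprasp1 (0.774). Sim2 was followed by 3 genes of muscle fibers, Tnnt3 (0.753), Mb (0.715) and Tnnc2 (0.710). These correlations describe libraries that share mice, and tumor tissue, depth and low counts enter all of them.

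Between WB1P-Myc and WB1P CAFs no member was called in any population, as against 0.494% of all genes in En1+ cells, 0.0642% in double- cells and 0% in CD26+ and double+ cells. With an unadjusted p under 0.05 there were 1865, 1858, 531 and 620 genes. En1 was lower in WB1P-Myc in all 4, by -0.90 ± 0.44 in En1+, -0.85 ± 0.40 in double-, -0.90 ± 0.48 in CD26+ and -0.79 ± 0.39 in double+ cells on the log2 scale, with adjusted p-values from 0.396 to 1. Without WB1P replicate 5, whose En1 was highest, the differences were -0.44, -0.55, -0.16 and -0.21 in the same order. In CD26+ cells, En1 was 46.9, 16.1 and 15.2 CPM in WB1P and 14.6, 14.2 and 12.96 CPM in WB1P-Myc libraries. In En1+ cells its range was 13.2 to 51.4 CPM in 5 WB1P and 8.24 to 18.2 CPM in 3 WB1P-Myc libraries. In double+ cells its mean was 43.3 ± 28.3 CPM (SD, n = 4) in WB1P and 25.1 ± 13.3 CPM (n = 5) in WB1P-Myc, again with overlapping ranges. Zic1 in En1+ cells had 11, 16, 17, 14 and 2 counts in WB1P and 0, 2 and 3 in WB1P-Myc libraries, a difference of -2.87 ± 0.93 (adjusted p = 0.159). Sim2 had 0 counts in all 3 WB1P-Myc En1+ libraries and 0, 1, 8, 1 and 0 in the WB1P ones.

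Related genes were followed through 3 lists, 20 paralogs of the members, 18 other factors of the somite and 7 of the lateral plate, the mesoderm of limbs and body wall. Of these 45 genes, 27 passed the filter. The lists were chosen with earlier results of these data known. Shares of the 27 called, here and between CAFs and NFs below, are therefore a description and no test of the lists. Zic2 had 0 counts in all NF libraries and 4 in all CAF libraries together, and Pax3 had 0 and 2. By CD26 class in the CAFs, 4 of the 27 were higher and 9 lower in GFP+ cells, and 6 higher and 11 lower in GFP- cells. These were 48.1% and 63.0% of the 27, beside 35.5% and 32.8% of all genes, with medians of -0.58 and -0.48 beside medians of -0.00 and -0.03 for all genes. In both GFP classes Foxc2 (log2 difference -5.27 and -6.41), Tbx2 (-4.09 and -4.76), Tbx3 (-3.43 and -3.16) and En2, the paralog of En1 (-3.21 and -3.46), were lower in CD26+ CAFs. En2 thus differed in the opposite direction to En1. Tbx20 had 598 counts in 8 En1+ and 1185 in 9 double- CAF libraries, and 3 counts in the 9 double+ and 2 in the 6 CD26+ CAF libraries. Summed pericyte markers also differed by CD26 class in the CAFs, as given above, and their part in these list gene results was not tested. Tbx5 was higher in CD26+ cells in GFP+ CAFs (2.71), GFP- CAFs (2.74), GFP+ NFs (2.90) and GFP- NFs (2.60). Eya4, a cofactor of Six4 and its relatives, was higher in CD26+ cells too, by 1.44 and 1.62 in the GFP+ and GFP- CAFs and by 2.40 and 2.24 in the NFs. In the NFs, 3 of the 27 were higher and 2 lower in CD26+ cells of the GFP+ class, and 4 higher and 2 lower in the GFP- class, which were 18.5% and 22.2% beside 4.35% and 4.58% of all genes. Dach1, which acts with Eya proteins, was lower in CD26+ NFs (-3.75 and -3.51), with Tbx2 (-1.88 and -1.87).

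Between CAFs and NFs the lists had 8 genes higher and 5 lower in En1+, 7 and 5 in double-, 4 and 7 in CD26+ and 4 and 8 in double+ cells, of 27 each. Shares of 48.1%, 44.4%, 40.7% and 44.4% stood beside 39.4%, 43.2%, 33.2% and 43.3% of all genes, and medians of 0.20, -0.01, -0.37 and -0.35 beside 0.02, 0.04, 0.00 and 0.02. Six2, a relative of Six4, was higher in CAFs of all 4 populations (3.15, 5.26, 3.67 and 3.17 in En1+, double-, CD26+ and double+ cells). Six2 went from 0 to 0.902 CPM in NFs to 0.599 to 9.93 CPM in CAFs. Dach1 was lower in all 4 (-4.63, -4.69, -2.62 and -2.49). Tbx20 had 0 counts in the 6 CD26- NF libraries and 5.75 ± 2.69 CPM (SD, n = 8) in En1+ and 10.1 ± 6.36 CPM (n = 9) in double- CAFs. En2 was higher in En1+ (3.02) and double- CAFs (3.80). Among the T-box relatives of Tbx1, Tbx2 (-3.52 and -2.67) was lower in CD26+ and double+ CAFs. Tbx15 had the highest level of the paralogs, 64.6 to 139 CPM over all libraries, and was not called between CAFs and NFs in any population. Between WB1P-Myc and WB1P, Eya2 was higher in WB1P-Myc En1+ cells (1.97, adjusted p = 0.0458), and the other list genes tested were not called in En1+ cells.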

How the data were processed

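The deposited values are whole-number read counts for each gene without normalization by the authors. They prepared stranded mRNA libraries and sequenced paired ends, and the submitters' processing notes name HISAT2 2.2.1 and GRCm38. The counter, its strand setting and the annotation are not given in the sources used here. Of the 55487 lines, 1 names no gene and holds 0 counts. Samples were grouped by their labels into 12 groups. Libraries held 5790599 to 15240328 counts, and counting error alone enters the intervals and floors (3 counts per library).

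All fits used edgeR 4.0.16 under R 4.3.3 (filterByExpr, TMM, glmQLFit and glmQLFTest, 1 fit over the 12 groups, WB1P and WB1P-Myc weighted equally, Benjamini-Hochberg adjustment over 15584 genes). DESeq2 1.42.0 was an alternative. Exact 2-sided permutation tests on log2(CPM + 0.5), 36 in all, were run in Python 3.11.15 with scipy 1.17.1, as sign flips within mice for CD26 and permutations of mice for CAFs against NFs. Ratios with a counting interval are ratios of summed counts, each divided by the summed TMM-scaled library sizes of its group.

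The members and the gene lists were chosen with earlier results of these data known. Genes named are the members, Dpp4, up to 6 list genes per comparison by size of change among those called, the 3 genes most like each member in log2 CPM (prior count 2), genes higher in the GFP+ library of every pair, and cell type markers that move with a result. Zic2, Pax3 and Tbx15 were named after their values were seen. Some items of the lists are not reported here. Libraries of one mouse come from the same animal by their labels, and their deviations from group means correlated with r from 0.243 to 0.842 (58 pairs). No 2 libraries were identical. Coordinates follow GENCODE M21, which has those of the file for 54820 of 55140 shared identifiers. Nothing in the labels names a sequencing batch, so that none was tested.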

Additional observations from a re-analysis of the deposited data

Results flagged for a closer look

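Among 28 groups of 4 or 5 libraries, 8 had a highest library that stood apart from the rest by Dixon's criterion. For continuous values chance gives about 1 in 20 groups, or 1.4 of the 28. The 8 cannot be set against that figure, because a lone library with counts beside others at 0 meets the criterion by construction. In 5 of the 8 groups the library held 1 or 2 counts and the others 0. Those were Zic1 in the double- libraries of WB1P replicate 5 (0.0834 CPM) and WB1P-Myc replicate 9 (0.0747 CPM), Zic4 in the double- library of WB1P replicate 6 (0.0746 CPM), Tbx1 in the En1+ library of WB1P replicate 5 (0.0937 CPM) and Sim2 in the double- library of WB1P-Myc replicate 9 (0.149 CPM). The other 3 rested on more reads. En1 in the double+ library of WB1P replicate 5 was 85.3 CPM (836 counts), and the next library had 34.7 CPM. Tbx1 in the double- library of WB1P-Myc replicate 11 was 0.782 CPM (11 counts), and the next had 0.0747 CPM. Sim2 in the En1+ library of WB1P replicate 6 was 0.651 CPM (8 counts), and the next had 0.0937 CPM.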

How the results depend on the processing

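Counts of members called moved by over 1.5 times as follows. These counts hold every member, also Zic1, Tbx1 and Sim2, whose levels in the NFs chose them. The GFP- NF levels of En1 and Six4 were among the choosing values too. No share of all genes under the same settings stands beside the counts, so they only tell which calls moved. With the fold limit of the study's methods (log2 change over 2) the count went from 2 to 0 for CD26 in GFP+ CAFs, from 1 to 0 in GFP- CAFs and from 3 to 0 for CAFs against NFs in double+ cells, and with the compared groups alone it went from 2 to 1 for CD26 in GFP+ CAFs, where En1 was lost. Smaller moves with the fold limit were from 3 to 2 in En1+, 4 to 3 in double- and 3 to 2 in CD26+ cells. With this limit, DESeq2's size factors, no filter, no 8x8 mice or the compared groups alone, the En1 call in double+ cells was lost. With the mouse as a block it went from 0 to 1 and from 0 to 2 for CD26 in GFP+ and GFP- NFs and from 0 to 1 for the CAF minus NF difference of GFP- cells, and the block changed no other member's call in the CD26 comparisons. Over the fits without 1 mouse each, the counts were 1 to 2 (CD26, GFP+ CAFs), 0 to 1 (CD26, GFP- CAFs), and for CAFs against NFs 2 to 3 in En1+, 3 to 4 in double-, 2 to 3 in CD26+ and 0 to 3 in double+ cells. No call of En1 or Six4, or of Zic1 by CD26 class, changed direction. With the block, differences that were not called did, for En1 from 0.17 to -0.11 (CAFs minus NFs, GFP+) and for Zic1 from -0.04 to 0.03 (CD26, GFP+ NFs).

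Calls between GFP classes are over all genes and describe the contrast that chose the members. They were 0 in CD26- CAFs (8 by DESeq2's Wald test, 11 with the block), 3 in CD26+ CAFs (1 without the 2 mice marked 8x8, 1 with the compared groups alone, 1 with the fold limit), 1 in CD26- NFs (6 by DESeq2, 25 with the block, 0 with the compared groups alone) and 1 in CD26+ NFs (3 with the block, 0 with the compared groups alone). Without 1 mouse each they were 1 to 3, 0 to 1 and 0 to 1 in the last 3. The exact tests of all members had 14 adjusted p-values under the threshold, 0 without the 2 mice marked 8x8 and 0 to 14 without 1 mouse each. With only 2 NFs left, the smallest p is larger by construction. The 14 include CAFs against NFs for Zic1, Zic4, Tbx1 and Sim2, which are not independent of the choice of genes and carry no test. The adjustment of the exact tests for En1 and Six4 also runs over these. Tests of En1 and Six4 between CAFs and NFs in double- and CD26+ cells are not independent of the choice either. No paired analysis was possible for CAFs against NFs or WB1P-Myc against WB1P because each mouse belongs to 1 kind of tissue. Zic1, Zic4, Tbx1 and Sim2 had few counts, and 3 control mice limit all comparisons with NFs.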
